A study of Homo sapiens with 12 samples.

Results

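Of 60671 genes counted in 12 RNA-seq samples of K562 human leukemia cells and of 2 clonal lines derived from them, 34 had more RNA in both derived lines than in K562. These 34 genes were chosen by the measured values themselves, as counts scaled to each sample's total count (CPM). The mean had to be at least 1 CPM in both derived lines and at least 2 times the K562 mean in each, and every replicate of the derived lines had to lie above every K562 replicate. Levels relative to K562 are therefore given as descriptions, with no test, and both comparisons share the same 4 K562 samples. The derived lines were not compared with each other in choosing the genes, so that comparison was tested gene by gene. The choice did use the values of both clones, and 1185 genes met it in K/VP.5 but 78 in the edited clone. It can therefore shape how many of the 34 differ between the clones, and in which direction.

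K562 is an established human chronic myeloid leukemia line that expresses many erythroid genes. K/VP.5 is a clone of K562 obtained by selection with etoposide, a drug that traps topoisomerase II on cut DNA. K562/SSedit-2 is a clone in which Cas9 and a repair template had altered an internal 5′ splice site in 2 of the 3 alleles of TOP2A, the gene of topoisomerase IIα, to ask how use of that splice site shapes the enzyme's forms and the response to etoposide. Each derived line is a single clone, all cells were grown to mid-log phase in DMEM with 10% FBS, and 4 replicates per line were sequenced from total RNA. Total counts per sample ranged from 36883518 to 43648830 in K562, from 28981722 to 39944440 in K/VP.5 and from 32355417 to 37619488 for the edited clone. At these totals, 3 counts of a gene correspond to 0.0687 to 0.104 CPM.

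TOP2A was at 462, 351, 383 and 399 CPM in the K562 replicates, 281, 279, 286 and 273 CPM in K/VP.5, and 199, 176, 177 and 204 CPM in K562/SSedit-2. As it was lower in both clones, it checks the K562 labels but could not show a swap of the 2 clones. The 3 lines did not overlap, with the highest values in K562 and the lowest in the edited clone. The log2 difference from K562 was -1.07 ± 0.0896 (SE) in K562/SSedit-2 (adjusted p = 1.05e-06, edgeR) and past the cutoff of a 2-fold change, but it was -0.96, short of 2-fold, without K562 replicate 1. In K/VP.5 the log2 difference was -0.55 ± 0.0888 (adjusted p = 8.58e-05, edgeR). Counts per gene do not separate the splice forms of TOP2A.

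Of 10 erythroid marker genes, 9 were at 1 CPM or more in every line, and the exception was HBE1, itself one of the 34 genes, in K562. Their summed level was 3788 to 4513 CPM in the K562 replicates, 3234 to 3554 CPM in K/VP.5 and 4924 to 5397 CPM in K562/SSedit-2, with the transferrin receptor gene TFRC the most abundant. Lists of markers of other cell types were split. Those under 1 CPM in all 3 lines were CD3E, CD2 and TRAC of T cells, MS4A1, CD79A, CD79B and PAX5 of B cells, CD14, CSF1R, CD68 and FCGR3A of monocytes, DCN and LUM of fibroblasts, CDH1, KRT5 and CLDN4 of epithelia, and CDH5, VWF, KDR and TEK of endothelium. Other genes of these lists reached that level in some line. KRT19 and EPCAM of epithelia had means of 155, 229 and 178 CPM and of 175, 131 and 175 CPM in K562, K/VP.5 and the edited clone. For the T cell genes CD3D and CD3G the means were 32.3, 8.49 and 42.5 CPM and 9.55, 11.1 and 18.3 CPM, and for LYZ of monocytes 1.43, 0.296 and 1.08 CPM. The 6 fibroblast markers, led by COL1A2, summed to 6.51, 14.8, 10.6 and 7.12 CPM in K562, 47.4, 58.8, 55.7 and 60 CPM in K/VP.5, and 10.6, 7.6, 8.07 and 5.88 CPM in K562/SSedit-2. The 5 endothelial markers, led by PECAM1, summed to 19.6 to 34.2 CPM in K562, 0.345 to 0.651 CPM in K/VP.5 and 32.8 to 41.9 CPM in K562/SSedit-2. Their part in the results was not tested. In bulk RNA, more cells of a kind and more RNA per cell cannot be told apart.

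Several of the 34 genes are known from red cells. Erythroid precursors switch through a cluster of β-like globin genes that are read from the embryonic to the adult end of the locus, and they add the Rh proteins to their surface. K562 cells are known for making embryonic and fetal rather than adult globin, and transcription factors of the GATA family, which bind the letters GATA in DNA, drive many red cell genes.

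In K562, 13 of the 34 had a mean under 1 CPM and 21 a mean under 2 CPM, whereas 4 (HEMGN, KIF1A, RAB6B and TENT5C) had a mean of at least 10 CPM. The median fold over K562 was 4.64 in K/VP.5 (range 2.15 to 58.7) and 2.6 in K562/SSedit-2 (range 2.01 to 62.4). The mean was higher in K/VP.5 for 22 genes and higher in K562/SSedit-2 for 12. Taken for each clone alone, the same choice gave 1185 genes in K/VP.5 and 78 genes in the edited clone, so the 34 genes were 2.87% of the first set and 43.6% of the second. The mirrored choice gave 48 genes lower in both clones.

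**Figure D1:**
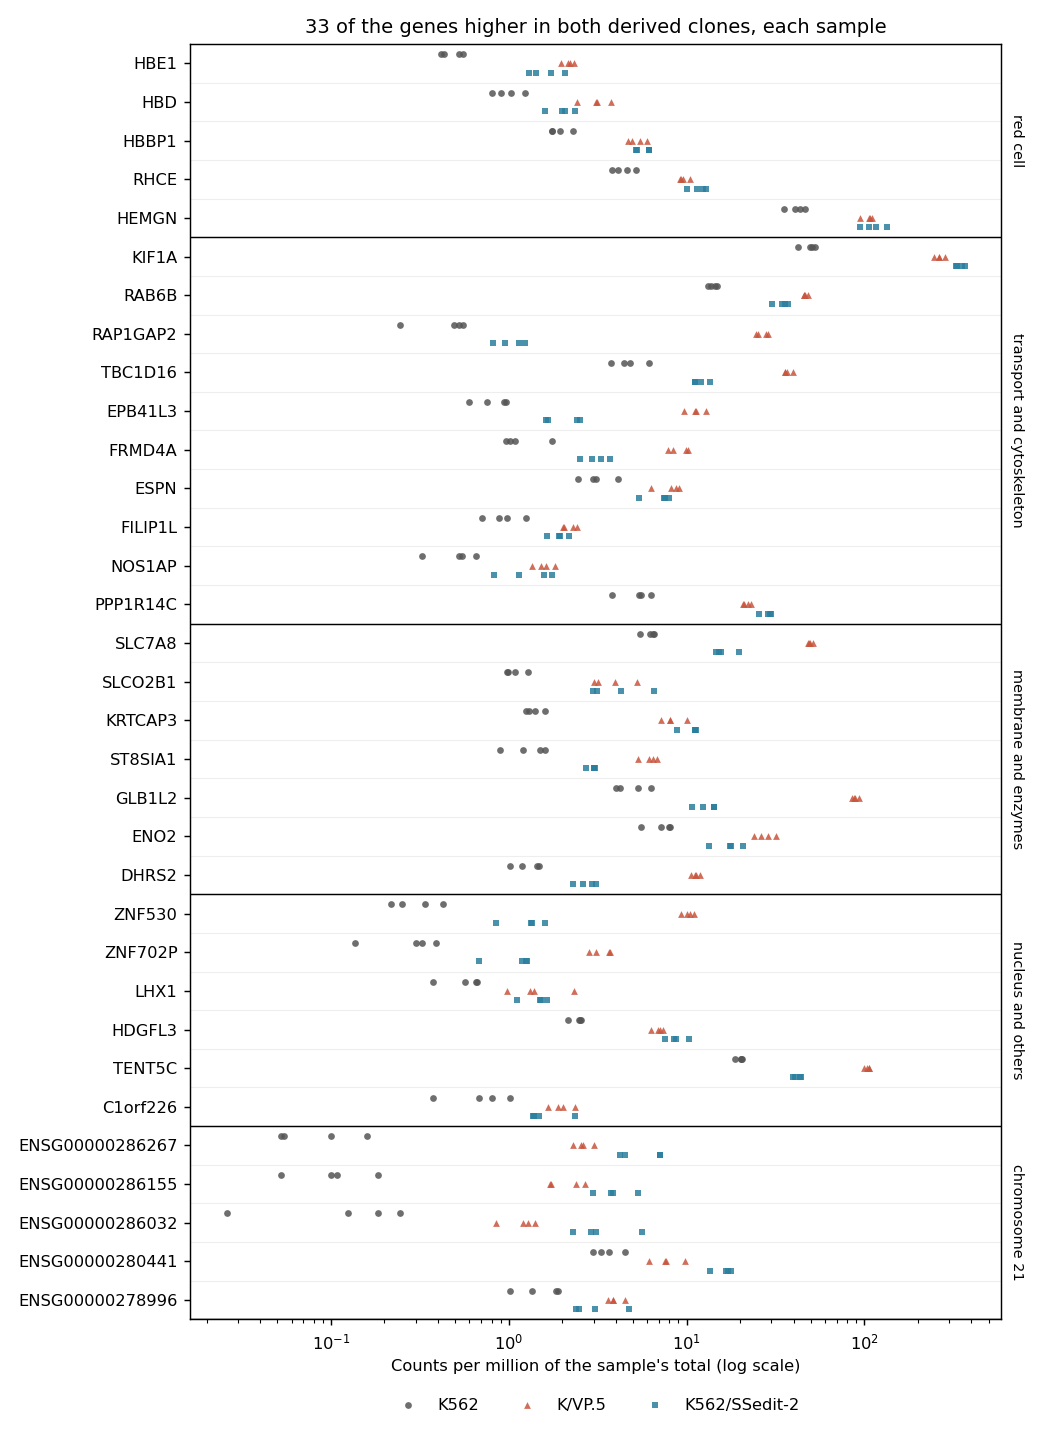
CPM in each of the 12 samples (x axis, log scale) for 33 of the 34 genes (y axis, grouped by role), with 1 symbol per replicate: circles for K562, triangles for K/VP.5 and squares for K562/SSedit-2. By the choice of genes every triangle and square lies right of every circle in its row, and triangles and squares stand far apart for RAP1GAP2, ZNF530 and GLB1L2.

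At the limits of the choice, FILIP1L and HBD had a mean in K562/SSedit-2 of 2.01 times K562 and ENSG00000278996 of 2.07 times, just inside. SLC30A10 at 1.99 times, CPEB4 at 1.95 times and ENSG00000236393 at 1.93 times lay just outside. For the mean level in the lower clone, RAP1GAP2 at 1.04 CPM, ZNF702P at 1.09 CPM and ENSG00000286032 at 1.19 CPM were just inside, while BMF at 0.931 CPM, IGSF1 at 0.885 CPM and ENSG00000250049 at 0.766 CPM were just outside. A total of 35 genes met the limits on fold and mean, and 1 of them, the transcription factor gene BACH2, was left out because its lowest clone replicate (0.649 CPM) did not exceed its highest K562 replicate (0.651 CPM). Of 3 other genes already described for these lines, the drug exporter gene ABCG2 was left out for a mean of 0.732 CPM in K562/SSedit-2, its relative ABCC3 for means of 0.773 CPM in K/VP.5 and 0.711 CPM in K562/SSedit-2, and the tetraspanin gene TSPAN5 for a K/VP.5 mean of 1.49 times K562.

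All 34 genes were among the 18626 that passed the filter on low counts and were tested, which their level of at least 1 CPM in both clones, set by the choice, favored. Between the clones, edgeR called 15 of the 34 genes (44.1%) different at a fold of 2 or more and an adjusted p under 0.1, against 15.8% of all tested genes. Of these, 12 were higher in K/VP.5 (9.62% of all tested genes) and 3 were higher in K562/SSedit-2 (6.2% of all tested genes), the latter a share near the background. The 34 genes were chosen on the values of both clones and the tested genes as a whole were not. Comparisons with all tested genes, here and below, are therefore descriptions and no test of the 34 as a group. The replicates of the clones did not overlap for 22 of the 34, against 47.6% of all tested genes. The log2 difference, K562/SSedit-2 minus K/VP.5, had a median of -0.25 over the 34 genes and -0.01 over all tested genes, and its median size regardless of sign was 0.61 and 0.34. Of the 19 genes not called, 10 had an adjusted p under 0.1 in edgeR with a fold under 2, and 9 had an adjusted p of 0.1 or more.

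**Figure D2:**
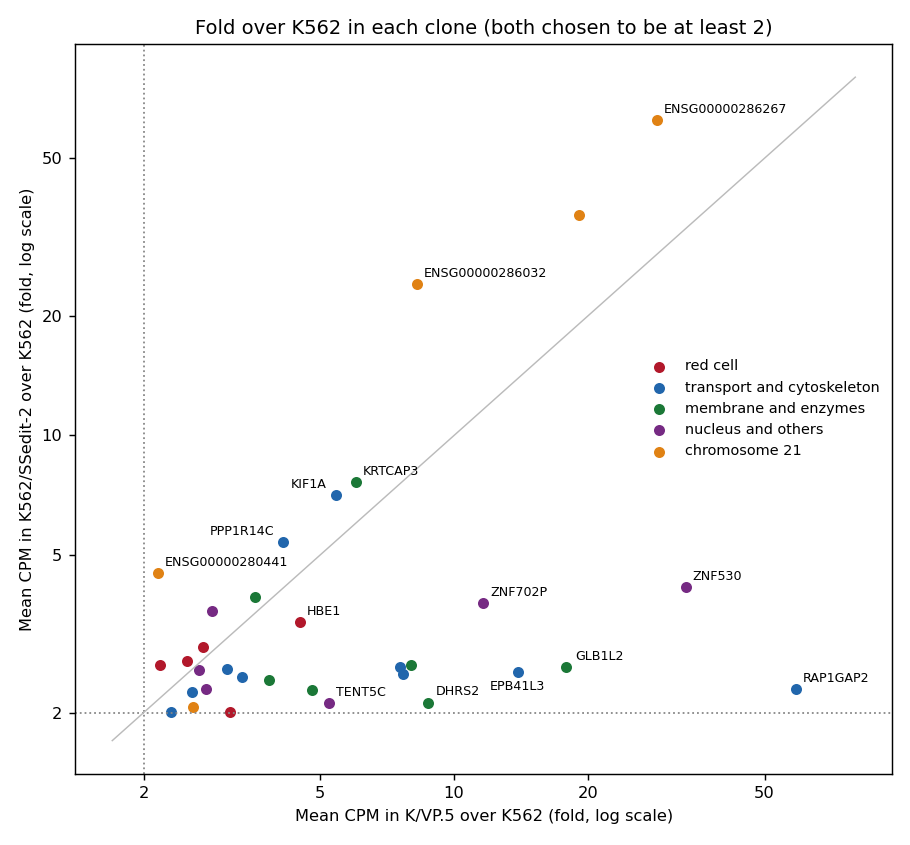
Mean CPM in K/VP.5 over K562 (x axis) and in K562/SSedit-2 over K562 (y axis) for the same 33 genes, as folds on log scales, colored by role, with the line of equal folds in grey and the limit of 2 dotted. Both axes share the K562 samples and were used in the choice; RAP1GAP2 lies far to the right at 58.7 and 2.29, and ENSG00000286267 highest at 28.6 and 62.4.

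**Figure D3:**
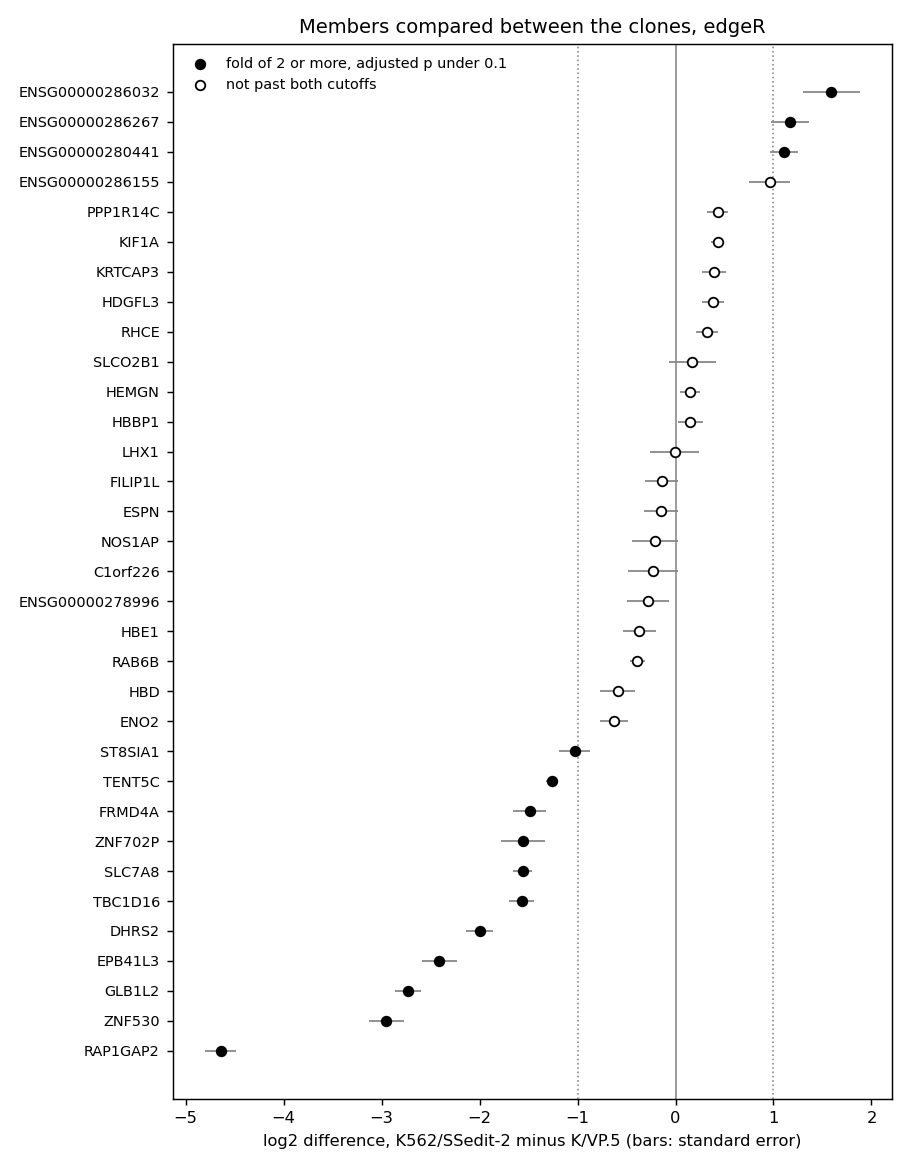
log2 difference between the clones, K562/SSedit-2 minus K/VP.5 (x axis), from edgeR for the same 33 genes (y axis), with bars of 1 standard error and dotted lines at 2-fold. Filled points are the 14 of them called, from -4.64 for RAP1GAP2 to 1.59 for ENSG00000286032, and open points are the 19 not called, from -0.63 to 0.96.

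Red cell genes among the 34 included the globin genes HBE1 and HBD, the globin pseudogene HBBP1, the surface protein gene RHCE, and HEMGN, which encodes the nuclear protein hemogen of blood-forming cells. These 5 differed by less than 2-fold between the clones. RHCE (ENSG00000188672, chr1:25362249-25430192 on GRCh38) encodes the protein that carries the Rh C and E antigens. Its values were 3.8, 5.2, 4.61 and 4.12 CPM in K562, 9.24, 10.5, 9.52 and 9.32 CPM in K/VP.5, and 10.1, 12.3, 12.9 and 11.5 CPM in K562/SSedit-2. The clones overlapped, and the log2 difference between them was 0.32 ± 0.109 (adjusted p = 0.023, edgeR), under 2-fold. Its close copy RHD, not among the 34, had means of 6.83, 11.5 and 15.1 CPM in K562, K/VP.5 and the edited clone, and how reads that fit both genes were counted is not stated. RHCE also overlaps exons of TMEM50A.

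HEMGN (ENSG00000136929, chr9:97926791-97944856) was at 43.7, 35.5, 41 and 46.5 CPM in K562, 110, 108, 106 and 95.1 CPM in K/VP.5, and 94.6, 117, 106 and 134 CPM in K562/SSedit-2. The clones overlapped across their range, with a log2 difference of 0.15 ± 0.101 (adjusted p = 0.25, edgeR). Per kilobase of exon, its level was 19 CPM in K562, 47.7 CPM in K/VP.5 and 51.4 CPM in the edited clone, higher in each line than that of any of the other 33 genes.

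The 3 globin locus genes lie within 25 kb of each other on chromosome 11 and were all at low levels. HBE1, the embryonic ε-globin gene, was at 0.417, 0.527, 0.434 and 0.55 CPM in K562, 2.2, 2.34, 1.97 and 2.14 CPM in K/VP.5, and 1.42, 1.73, 1.3 and 2.06 CPM in K562/SSedit-2. HBD, whose δ-globin chain forms a minor adult hemoglobin, was at 0.807, 1.24, 1.03 and 0.9 CPM in K562, 3.78, 2.42, 3.08 and 3.14 CPM in K/VP.5, and 2, 2.07, 2.35 and 1.59 CPM in K562/SSedit-2. HBBP1, a transcribed pseudogene between the fetal and adult genes, had means of 1.94, 5.28 and 5.68 CPM in the 3 lines in that order. The clones were within 2-fold of each other for all 3, with log2 differences of -0.37 ± 0.17 for HBE1, -0.59 ± 0.18 for HBD and 0.15 ± 0.126 for HBBP1.

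The fetal genes of the same locus did not reach 2 times K562 in both clones and were not among the 34: HBG1 had means of 131, 222 and 218 CPM and HBG2 of 222, 242 and 369 CPM in K562, K/VP.5 and the edited clone. HBB, the adult β-globin gene, stayed under 1 CPM, with means of 0.171, 0.743 and 0.258 CPM. The annotated span of HBE1 runs into the olfactory receptor gene OR51B5, which had means of 76.4 CPM in K562, 0.127 CPM in K/VP.5 and 73.1 CPM in the edited clone, while HBE1 was highest in K/VP.5. Exons of HBE1 overlap those of OR51B5, HBG2 and ENSG00000239920, and exons of HBD overlap those of HBBP1, so reads in the shared stretches cannot be assigned to one gene.

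A list of 46 erythroid genes, all tested, held 4 of the 34, RHCE, HBE1 and HBD among them. Between the clones, 1 gene of the list was called higher in K562/SSedit-2 (the anion exchanger gene SLC4A1, log2 difference 4.24; 6.2% of all tested genes) and 6 were called higher in K/VP.5 (9.62%), and the median log2 difference was 0.01. Among the 42 listed genes outside the 34, 8 were called higher in K/VP.5 than in K562 (8.98% of all tested genes) and 2 lower (6.66%). In K562/SSedit-2 against K562, 4 were called higher (0.805% of all tested genes): SLC4A1, the carbonic anhydrase gene CA1, RHD and the globin gene HBM, with log2 differences of 1.25, 1.10, 1.15 and 1.11. In K/VP.5, SLC4A1 lay below K562 by a log2 difference of -2.99, so the clones differed from K562 in opposite directions at this gene.

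Promoters, taken as 250 bases before to 50 bases after an annotated start in RefSeq on GRCh38.p14, were found for 21 of the 34 genes, with 40 promoters among them. The letters AGATAA or TGATAA, the core bound by GATA factors, were present on either strand in a promoter of 8 of the 21 (DHRS2, EPB41L3, FRMD4A, HBD, HEMGN, KIF1A, NOS1AP and RHCE). Several genes have more than 1 promoter, and counted by promoter 10 of the 40 (25%) held these letters, against 16.3% of all 35114 promoters in the same table. The 2 RHCE promoters overlap and hold the same match, so it is counted 2 times. The same holds below for CACCC in overlapping promoters of RAB6B and of SLC7A8, and for CCAAT in those of RHCE. CACCC was in 28 of the 40 (70%, against 59.9%), TATAAA in 5 (12.5%, against 11.5%) and CCAAT in 10 (25%, against 34.6%). No test was made of these shares. The sequences of the 3 red cell genes with such a match are shown from 5′ to 3′ on the gene's strand, all on the minus strand of the genome, with these letters, read on either strand, in capitals. They cover chr11:5234434-5234733 for HBD, chr9:97944803-97945102 for HEMGN and chr1:25420776-25421075 for RHCE. Not shown are the other RHCE promoter and another HEMGN promoter, at chr9:97938123-97938422, which holds 2 matches.
HBD: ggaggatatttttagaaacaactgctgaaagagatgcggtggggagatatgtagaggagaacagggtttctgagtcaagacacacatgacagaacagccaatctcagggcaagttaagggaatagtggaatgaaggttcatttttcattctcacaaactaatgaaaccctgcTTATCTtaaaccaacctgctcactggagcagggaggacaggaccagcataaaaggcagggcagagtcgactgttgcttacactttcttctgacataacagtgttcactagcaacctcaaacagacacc
HEMGN: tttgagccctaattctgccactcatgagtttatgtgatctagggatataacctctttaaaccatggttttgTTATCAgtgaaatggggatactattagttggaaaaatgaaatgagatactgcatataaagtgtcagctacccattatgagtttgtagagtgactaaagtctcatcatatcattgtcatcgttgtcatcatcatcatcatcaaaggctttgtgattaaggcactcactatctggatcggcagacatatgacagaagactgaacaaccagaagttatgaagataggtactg
RHCE: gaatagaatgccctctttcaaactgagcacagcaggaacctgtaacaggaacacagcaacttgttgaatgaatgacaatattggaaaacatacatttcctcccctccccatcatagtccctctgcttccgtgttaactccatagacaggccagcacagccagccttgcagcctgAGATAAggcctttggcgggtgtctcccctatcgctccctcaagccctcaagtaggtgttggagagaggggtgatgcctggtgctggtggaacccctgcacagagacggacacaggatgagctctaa
Such a match describes letters and not a bound site.

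The 34 genes were sorted into roles by hand, and the share of each role among all tested genes was not counted. A loose group of 10 was placed under vesicle transport, small GTPases and the cytoskeleton, with PPP1R14C and NOS1AP added to it. Of the 10, 4 were called between the clones, all higher in K/VP.5 (9.62% of all tested genes). KIF1A (ENSG00000130294, chr2:240713761-240824293), a kinesin motor that carries synaptic vesicle precursors along axons, is the first of the group. It was at 42.5, 49.2, 50.9 and 52.8 CPM in K562, 247, 264, 264 and 283 CPM in K/VP.5, and 333, 327, 366 and 354 CPM in K562/SSedit-2. The 3 lines did not overlap and the edited clone was highest, with a log2 difference between the clones of 0.43 ± 0.064 (adjusted p = 3.68e-05, edgeR), under 2-fold. Per kilobase it rose from 2.73 CPM in K562 to 14.8 CPM in K/VP.5 and 19.3 CPM in the edited clone, below HEMGN in every line.

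RAP1GAP2 (ENSG00000132359, chr17:2755705-3037741), a GTPase-activating protein for the Rap proteins that acts in platelet secretion, showed the largest difference between the clones among the 34. It was at 0.495, 0.55, 0.244 and 0.525 CPM in K562, 24.6, 25.1, 27.9 and 28.8 CPM in K/VP.5, and 0.82, 0.957, 1.14 and 1.23 CPM in K562/SSedit-2. The edited clone lay just above K562 and near the lower limit of the choice, and K/VP.5 far above both. The log2 difference between the clones was -4.64 ± 0.159 (adjusted p = 7.09e-13, edgeR). EPB41L3, a member of the band 4.1 family that ties membrane proteins to the cytoskeleton, was at 0.963, 0.939, 0.596 and 0.75 CPM in K562, 12.8, 11.3, 11.2 and 9.73 CPM in K/VP.5, and 2.52, 1.67, 1.61 and 2.41 CPM in K562/SSedit-2. Its log2 difference was -2.41 ± 0.175 (adjusted p = 8.92e-09, edgeR), again with every K/VP.5 replicate the higher.

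TBC1D16, a GTPase-activating protein for Rab proteins, and FRMD4A, a scaffold protein with a FERM domain, were the other genes of this group called higher in K/VP.5. TBC1D16 had means of 4.8, 36.9 and 12 CPM in K562, K/VP.5 and the edited clone and a log2 difference of -1.57 ± 0.126. FRMD4A had means of 1.2, 9.09 and 3.12 CPM and a log2 difference of -1.49 ± 0.165. In both, the edited clone fell between K562 and K/VP.5 with no overlap.

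The remaining 6 genes of the group were within 2-fold between the clones. PPP1R14C, an inhibitor of protein phosphatase 1, was at 3.8, 6.35, 5.53 and 5.4 CPM in K562, 20.8, 21, 22.2 and 22.9 CPM in K/VP.5, and 25.6, 28.9, 29.7 and 29.4 CPM in K562/SSedit-2, with a log2 difference between the clones of 0.43 ± 0.105. RAB6B, a Rab protein of Golgi transport that is abundant in neurons, had means of 14, 46.7 and 34.5 CPM in K562, K/VP.5 and the edited clone and a log2 difference of -0.39 ± 0.0774. PPP1R14C was thus highest in the edited clone and RAB6B in K/VP.5, each without overlap of replicates. ESPN, which bundles actin in the stereocilia of hair cells, had means of 3.15, 8.11 and 7.08 CPM. NOS1AP, an adaptor of neuronal nitric oxide synthase, had means of 0.512, 1.58 and 1.32 CPM. FILIP1L, related to a filamin-binding protein, had means of 0.955, 2.2 and 1.92 CPM. For these last 3 genes the replicates of the clones overlapped, with log2 differences of -0.15 ± 0.172 for ESPN, -0.21 ± 0.236 for NOS1AP and -0.14 ± 0.169 for FILIP1L.

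KIF1A and ENO2 also stand on a list of 62 neuronal and axonal genes, of which 35 were tested. Between the clones 2 genes of that list were called higher in K562/SSedit-2 (6.2% of all tested genes) and 11 higher in K/VP.5 (9.62%), with a median log2 difference of -0.63. Neither KIF1A nor ENO2 was among those called.

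Of 7 genes for membrane proteins and enzymes, 4 were called between the clones, all higher in K/VP.5 (9.62% of all tested genes). GLB1L2 (ENSG00000149328, chr11:134331988-134378341), a relative of lysosomal β-galactosidase, was at 6.35, 5.32, 4.01 and 4.2 CPM in K562, 89, 87.1, 93.2 and 85.7 CPM in K/VP.5, and 14.3, 14.3, 12.3 and 10.8 CPM in K562/SSedit-2. Its log2 difference between the clones was -2.73 ± 0.133 (adjusted p = 5.59e-11, edgeR), and the neighboring relative GLB1L3 was called in the same direction. DHRS2, a dehydrogenase/reductase, was at 1.48, 1.44, 1.19 and 1.02 CPM in K562, 11.2, 11.9, 11.3 and 10.6 CPM in K/VP.5, and 2.6, 3.08, 2.29 and 2.94 CPM in K562/SSedit-2, with a mean in K/VP.5 4.13 times that in K562/SSedit-2 (SE of the log2 difference 0.137, adjusted p = 4.32e-09, edgeR). In both genes the edited clone stood close above K562 and K/VP.5 well apart.

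SLC7A8, the light chain of a transporter of neutral amino acids, was at 6.56, 6.46, 6.26 and 5.47 CPM in K562, 51.6, 48.7, 49.3 and 47.9 CPM in K/VP.5, and 19.6, 15.2, 15.7 and 14.6 CPM in K562/SSedit-2. The 3 lines did not overlap, and the log2 difference between the clones was -1.56 ± 0.1 (adjusted p = 2.15e-09, edgeR). SLC7A8 and DHRS2 lie 446 kb apart on chromosome 14. ST8SIA1, which makes the ganglioside GD3, had means of 1.29, 6.19 and 2.95 CPM in K562, K/VP.5 and the edited clone. Its log2 difference of -1.03 ± 0.159 was just past 2-fold and fell short of it without K/VP.5 replicate 1 (by a margin lost in rounding), K/VP.5 replicate 3 (-0.96) or K562/SSedit-2 replicate 1 (-0.97).

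KRTCAP3, a membrane protein named for its association with keratinocytes, was at 1.3, 1.4, 1.6 and 1.25 CPM in K562, 8.09, 8.06, 7.17 and 10 CPM in K/VP.5, and 8.83, 11.1, 11.2 and 11.3 CPM in K562/SSedit-2. The clones overlapped at 1 replicate of each, with a log2 difference of 0.39 ± 0.123 (adjusted p = 0.015, edgeR), under 2-fold. ENO2, the neuronal form of the glycolytic enzyme enolase, had means of 7.2, 27.7 and 17.4 CPM in K562, K/VP.5 and the edited clone and a log2 difference of -0.63 ± 0.141. SLCO2B1, an uptake transporter of organic anions, had means of 1.08, 3.85 and 4.23 CPM and a log2 difference of 0.17 ± 0.241. Exons of KRTCAP3 overlap those of IFT172 and exons of SLCO2B1 those of TPBGL-AS1, so part of these counts is uncertain.

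KRTCAP3 and KIF1A, the 2 protein-coding genes with the highest fold over K562 in their lower clone (6.01 and 5.42, both in K/VP.5), had more CG pairs, where cytosines can be methylated, in their promoters than HBD, HEMGN and RHCE had. The median number of CG pairs in 300 bases was 11 over the 40 promoters (range 0 to 51) and 14 over all 35114. The KRTCAP3 promoter at chr2:27442131-27442430, plus strand, holds 28 CG pairs, and the 3 promoters of KIF1A hold 51, 20 and 10, against 2 for HBD, 2 and 1 for HEMGN and 4 and 2 for RHCE. Genes with low folds in their lower clone also had promoters with many CG pairs. Those of FILIP1L (fold 2.01) hold 48 and 2, and those of RAP1GAP2 (fold 2.29) from 4 to 49. A link between CG pairs and fold was not tested. That of KRTCAP3 and the one of KIF1A with the most CG pairs, at chr2:240820170-240820469 on the minus strand, are shown 5′ to 3′ on the gene's strand with CG pairs in capitals. Methylation was not measured.
KRTCAP3: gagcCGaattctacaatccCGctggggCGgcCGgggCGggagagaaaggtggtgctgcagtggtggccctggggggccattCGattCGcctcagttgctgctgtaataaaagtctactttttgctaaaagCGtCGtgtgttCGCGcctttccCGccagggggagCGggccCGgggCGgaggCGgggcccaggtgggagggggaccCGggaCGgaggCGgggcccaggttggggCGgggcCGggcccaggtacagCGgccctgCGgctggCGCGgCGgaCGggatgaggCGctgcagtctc
KIF1A: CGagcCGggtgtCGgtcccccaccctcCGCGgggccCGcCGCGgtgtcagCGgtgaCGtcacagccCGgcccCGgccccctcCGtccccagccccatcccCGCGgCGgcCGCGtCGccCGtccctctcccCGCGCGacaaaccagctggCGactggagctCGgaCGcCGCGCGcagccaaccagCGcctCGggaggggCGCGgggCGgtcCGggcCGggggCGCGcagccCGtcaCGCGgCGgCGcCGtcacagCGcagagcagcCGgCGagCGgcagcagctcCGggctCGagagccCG

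Of 6 genes for nuclear and other proteins, 3 were called between the clones, all higher in K/VP.5 (9.62% of all tested genes). ZNF530 (ENSG00000183647, chr19:57599885-57612722) encodes a C2H2 zinc finger protein, of the large family of DNA-binding proteins clustered on chromosome 19. It was at 0.339, 0.252, 0.217 and 0.425 CPM in K562, 10.1, 11, 10.5 and 9.32 CPM in K/VP.5, and 1.59, 0.851, 1.33 and 1.35 CPM in K562/SSedit-2. The log2 difference between the clones was -2.95 ± 0.176 (adjusted p = 7.69e-10, edgeR). All 6 other tested genes within 100 kb of it (ZNF211, ZNF773, ZNF154, ZNF551, ZNF134 and ZNF550) were also called higher in K/VP.5. Means of these neighbors were low in both K562 and K562/SSedit-2 beside K/VP.5: 0.00625, 20.3 and 0.0155 CPM for ZNF551, 0.0555, 4.34 and 0.00665 CPM for ZNF134 and 1.55, 8.14 and 2.16 CPM for ZNF211 in K562, K/VP.5 and the edited clone.

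ZNF702P, a pseudogene of the same family elsewhere on chromosome 19, had means of 0.288, 3.34 and 1.09 CPM in K562, K/VP.5 and the edited clone and a log2 difference of -1.56 ± 0.226. As a pseudogene it may share reads with related genes. Among 405 tested genes named ZNF, which include both, 18 were called higher in K562/SSedit-2 (6.2% of all tested genes) and 70 higher in K/VP.5 (9.62%), with a median log2 difference of -0.19. TENT5C, which adds poly(A) to messenger RNA, was at 20.2, 20.5, 18.7 and 20.2 CPM in K562, 106, 100, 106 and 104 CPM in K/VP.5, and 41, 39.7, 43.3 and 43.8 CPM in K562/SSedit-2. Its replicates were close in each line, and the log2 difference between the clones was -1.26 ± 0.0654 (adjusted p = 1.21e-10, edgeR).

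LHX1, a LIM homeobox transcription factor of head and kidney development, had the log2 difference nearest 0 between the clones, -0.01 ± 0.25, with means of 0.565, 1.5 and 1.44 CPM in K562, K/VP.5 and the edited clone. HDGFL3, of the hepatoma-derived growth factor family, had means of 2.43, 6.94 and 8.79 CPM and a log2 difference of 0.38 ± 0.111. C1orf226, a gene without a known function, had means of 0.718, 1.99 and 1.64 CPM and a log2 difference of -0.23 ± 0.251. C1orf226 starts 8.37 kb from the end of NOS1AP on chromosome 1, both overlap exons of ENSG00000254706, and their clone replicates overlapped.

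The last 5 genes lie in the ribosomal DNA region of chromosome 21, carry no symbol, and the edited clone was highest for 4 of them. Ribosomal DNA is repeated in tandem on the short arms of 5 chromosomes, so a read from one copy can match another. For ENSG00000286267, ENSG00000286155, ENSG00000280441 and ENSG00000278996, 100% of the 100-base windows of their exons occur elsewhere on chromosome 21, and 38.5% for ENSG00000286032. Their counts are therefore uncertain one by one, and ENSG00000286267 lies within the span of ENSG00000280441.

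ENSG00000286267 (chr21:8417757-8418235) had the highest fold of the 34 in K562/SSedit-2, at 0.0521, 0.16, 0.0542 and 0.1 CPM in K562, 2.3, 3, 2.56 and 2.62 CPM in K/VP.5, and 4.21, 4.49, 7.05 and 7.11 CPM in K562/SSedit-2. It had only 15 counts in the 4 K562 samples together, so the size of its fold over K562 is uncertain. ENSG00000280441 (chr21:8380643-8454792), a long noncoding RNA, was at 2.97, 3.32, 4.5 and 3.67 CPM in K562, 6.11, 7.56, 7.67 and 9.76 CPM in K/VP.5, and 13.5, 16.6, 17.8 and 17 CPM in K562/SSedit-2. In both genes the 3 lines stood in steps without overlap, K562 lowest and the edited clone highest. ENSG00000286032 had means of 0.145, 1.19 and 3.48 CPM and ENSG00000286155 of 0.111, 2.12 and 3.99 CPM in K562, K/VP.5 and the edited clone. ENSG00000278996 had means of 1.53, 3.96 and 3.16 CPM and was the exception, with overlapping clones.

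These include all 3 of the 34 called higher in K562/SSedit-2 (6.2% of all tested genes): ENSG00000286032 with a log2 difference of 1.59 ± 0.29 (adjusted p = 2.46e-04, edgeR), ENSG00000286267 with 1.17 ± 0.195 (adjusted p = 1.08e-04, edgeR) and ENSG00000280441 with 1.11 ± 0.141 (adjusted p = 6.15e-06, edgeR). ENSG00000286155, at 0.96 ± 0.207, was just short of 2-fold and passed it without K/VP.5 replicate 2 (1.10), K/VP.5 replicate 4 (1.02), K562/SSedit-2 replicate 1 (1.09) or K562/SSedit-2 replicate 2 (1.00). Of the 12 other genes of the region with a mean of at least 1 CPM in a line, 3 had a higher mean in both clones than in K562 and 9 a lower one. Among the 3, ENSG00000286146 had means of 0.0831, 0.625 and 2.15 CPM in K562, K/VP.5 and the edited clone. ENSG00000286148 had means of 0.0193, 0.145 and 1.23 CPM and ENSG00000286252 of 0.0367, 0.435 and 1.2 CPM. Their K/VP.5 means under 1 CPM kept them out of the 34. ENSG00000281181, of the 12 the one with the highest CPM, was at 665, 1177, 1159 and 692 CPM in K562, 714, 494, 755 and 472 CPM in K/VP.5, and 359, 430, 789 and 430 CPM in K562/SSedit-2, so it did not follow the 5 genes. The summed level of 47 nuclear ribosomal RNA genes was 10.6 to 28.3 CPM in the K562 replicates, 9.63 to 16.6 CPM in K/VP.5 and 8.78 to 26.5 CPM in K562/SSedit-2, and its part in the result was not tested.

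**Figure D4:**
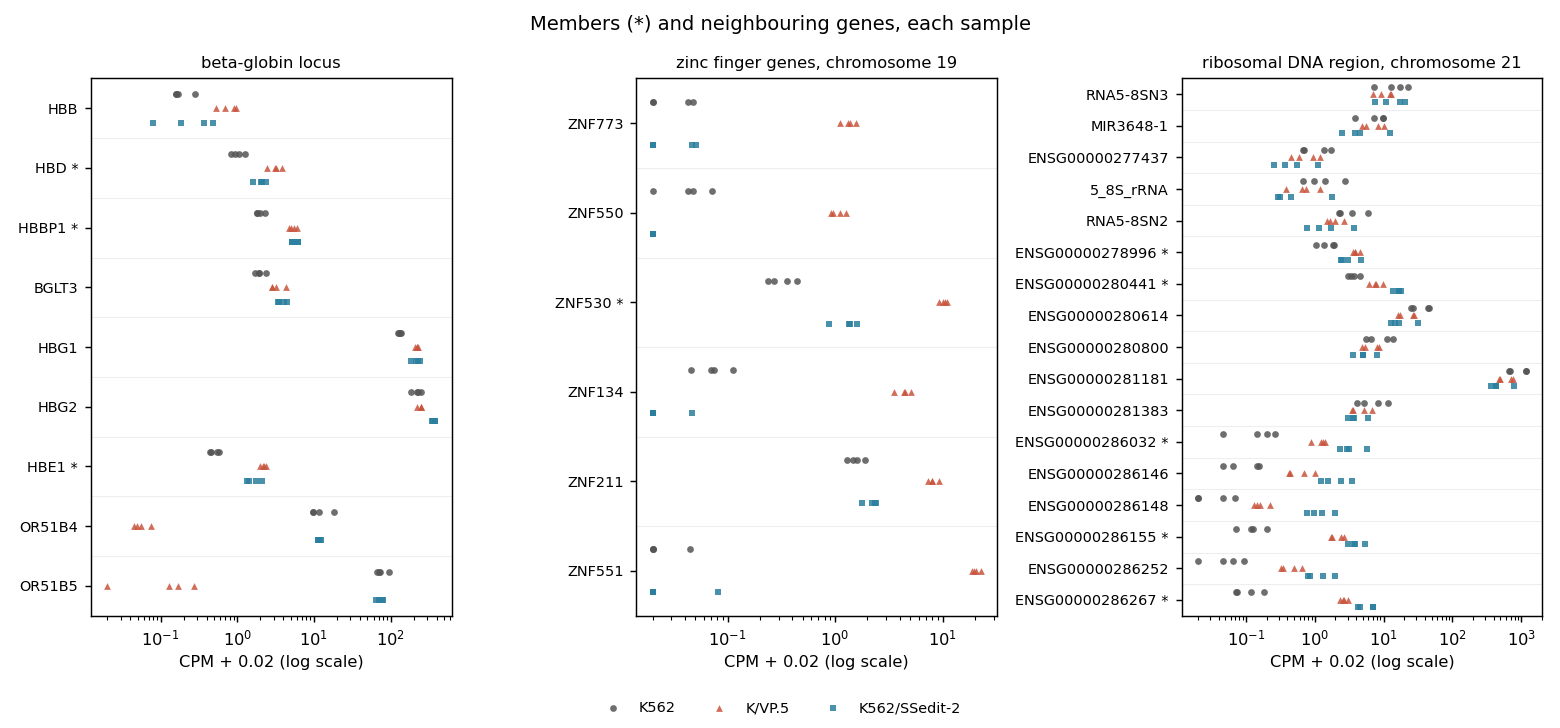
CPM plus 0.02 in each of the 12 samples (x axis, log scale) for genes of the β-globin locus, the zinc finger genes around ZNF530 and the ribosomal DNA region of chromosome 21 (y axis), with circles for K562, triangles for K/VP.5 and squares for K562/SSedit-2 and a star on each of the 34 genes. The neighbors of ZNF530 are high in K/VP.5 alone, OR51B5 and OR51B4 are near 0 in K/VP.5 alone, and 9 genes of the chromosome 21 region are lower in mean in both clones than in K562.

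By annotated type, 27 of the 34 were protein-coding, 2 were long noncoding RNAs, 2 were pseudogenes and 3 were of the type TEC, given to transcripts whose structure still awaits experimental proof, which made up 8.82% of the 34 and 1.25% of tested genes. The 34 were spread over 15 chromosomes, with 5 each on chromosomes 1, 11 and 21, which hold 1905, 1006 and 267 of the tested genes. The 5 on chromosome 21 are those of the ribosomal DNA region and include all 3 of type TEC. Of the 15 genes called between the clones, 8 (53.3%) had another tested gene within 100 kb called in the same direction, near the 48.2% of the 2916 other called genes with a known position. Across the 39 gene lists examined, 12 of the 34 stood on a list and 22 on none. With 1 clone per derived line, the effect of the TOP2A edit or of etoposide selection cannot be told apart from differences between clones.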

How the data were processed

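RNA of 12 samples, 4 replicates for each of the 3 lines, had been sequenced. Reads had been aligned to GRCh38 with HISAT2 by the authors, who deposited whole-number counts per gene from featureCounts, without normalization. The strand setting, the treatment of reads mapping to several places and the annotation release are not given in the sources used here, so overlapping or near-identical genes have uncertain counts. Beyond the overlaps given above, exons of ESPN, FRMD4A, HDGFL3, LHX1, RAB6B, RAP1GAP2, SLC7A8, ST8SIA1, TBC1D16 and ZNF702P overlap those of other genes. Of 60671 identifiers, 60401 were found in GENCODE 44. All 12 samples were fitted by line in R 4.3.3 with edgeR 4.0.16 (filterByExpr with a minimum count of 10, TMM factors, quasi-likelihood F test, Benjamini-Hochberg adjustment over 18626 genes), called at a fold of 2 and an adjusted p under 0.1, and checked on simulated data. Figures were drawn in Python 3.11.15 with matplotlib 3.10.9. Limma 3.58.1 and DESeq2 1.42.0 served in alternatives.

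The members and lists were chosen with earlier results of these data known. Genes were named by fixed ranks: the 12 highest smaller folds over K562, the 10 highest clone means, shared lists, the 6 largest differences in each direction and the 6 nearest 0 between the clones, neighbors within 1 Mb, at least 20 CPM in every K562 replicate, the 3 genes on each side of a limit, TOP2A, and genes already described for the series. FRMD4A and ST8SIA1, the other erythroid genes and the neighbors of members were named after their values were seen.

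Replicates within a line were not duplicates, since over 18 pairs the chi-square per degree of freedom of their counts was 5.15 to 61.8. Nothing states that they were separate cultures, so p-values measure the spread between these samples, which may be technical. Replicate numbers are in the sample labels. Deviations from the line means of same-numbered K562 and K562/SSedit-2 samples correlated across genes at 0.23 to 0.38 (mean over different numbers -0.10). A refit therefore took the number as a block, over all 3 lines and so with K/VP.5 included.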

Additional observations from a re-analysis of the deposited data

Results flagged for a closer look

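In 7 of 105 groups of 4 replicates (35 genes in 3 lines), 1 sample stood apart from the other 3, where chance alone would mark about 1 group in 20. KRTCAP3 was at 8.83 CPM in K562/SSedit-2 replicate 1, against 11.1 to 11.3 in the others. ZNF702P was at 0.68 CPM in K562/SSedit-2 replicate 3, against 1.18 to 1.26. HDGFL3 was at 2.16 CPM in K562 replicate 1, against 2.49 to 2.54. FRMD4A was at 1.75 CPM in K562 replicate 4, against 0.963 to 1.08. C1orf226 was at 2.35 CPM in K562/SSedit-2 replicate 1, against 1.36 to 1.47. ST8SIA1 was at 2.71 CPM in K562/SSedit-2 replicate 1, against 3 to 3.06. TENT5C was at 18.7 CPM in K562 replicate 3, against 20.2 to 20.5. Of the 7, 3 were in K562/SSedit-2 replicate 1, and the cause was not tested.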

How the results depend on the processing

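Of the 34 genes, 32 kept the same call between the clones in all 20 refits (other scalings, filters and tools, a replicate block, and leaving out each replicate in turn), and no called gene changed sign. Without a fold cutoff, 25 of the 34 genes and 10055 of all tested genes had an adjusted p under 0.1 in edgeR. The number of genes higher in both clones was 83 at a limit of 1.5 times K562 and 10 at 3 times, and that of genes lower in both clones was 115 and 20, or 30 at a mean of at least 2 CPM. Those counts follow from the limits themselves.

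Leaving out 1 replicate at a time gave 14 to 16 of the 34 genes and 3018 to 3135 of all genes called between the clones, a median log2 difference of -0.32 to -0.17, 33 to 37 genes higher and 46 to 61 genes lower in both clones. TOP2A ranged from -0.62 to -0.46 in K/VP.5 and from -1.12 to -0.96 in K562/SSedit-2 on the log2 scale, the last value, without K562 replicate 1, being under 2-fold. The cause was not tested. For genes under 1 CPM in K562, the depth limits the fold.

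With the replicate number as a block, 15 of the 34 genes and 2965 of all genes were called, against 15 and 2945 without it. The median was -0.29, against -0.25, and TOP2A was at -0.54 and -1.06. The block changed no call among the 34 genes or for TOP2A. Same-numbered samples of the 2 clones correlated at -0.18 to 0.21 and those of K562 and K/VP.5 at -0.01 to 0.31. Not every sample correlated best with its own number. The main fit paired no samples, whereas the block covered all 3 lines, K/VP.5 included.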
